A study of Mus musculus with 8 samples.

Results

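The nuclear genes for the subunits of the 5 oxidative phosphorylation complexes were followed in primary mouse hepatocytes that carried an AAV8 virus for Trib3 or for GFP. Members were the rows of the count table whose gene symbol begins with Ndufa, Ndufb, Ndufc, Ndufs or Ndufv and a number, with Uqcr, Sdha to Sdhd, Cox4 to Cox8, or Atp5. They number 83 of the 34745 genes in the table: 35 in complex I, 4 in complex II, 8 in complex III, 18 in complex IV (with Ndufa4, which carries an older complex I name) and 15 in complex V. The other 3 match by name only. Cox7a2l is a factor of respiratory supercomplexes, and Atp5s and Atp5sl are not counted here as subunits. Both groups had the genotype WT and came from male mice injected at 6 weeks of age. AAV-Trib3 (4 libraries) delivered mouse Trib3, a pseudokinase induced by cell stress, and AAV-GFP (4 libraries) delivered the green fluorescent protein. Hepatocytes were isolated 4 weeks after injection in AAV-Trib3 mice, and the labels give the same protocol for AAV-GFP. The mouse strain, the promoter in the virus and the share of cells transduced are not given in the labels. The libraries are numbered within each group, but nothing says that each came from a separate mouse, so p-values measure only the spread between these libraries, which may be technical.

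Complex I oxidises NADH and complex II, the only complex that is also an enzyme of the citric acid cycle, oxidises succinate; both pass electrons to ubiquinone. Complex III hands them through cytochrome c to complex IV, which reduces oxygen, and complex V uses the proton gradient made by complexes I, III and IV to form ATP. All subunits of complex II, and most subunits of the others, are encoded in the nucleus, while the mitochondrial genome supplies core subunits of complexes I, III, IV and V. Hepatocytes rely on this chain for the energy that gluconeogenesis and urea synthesis take up.

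Total counts per library ran from 13491058 to 15361128 in AAV-Trib3 and from 11350442 to 14247364 in AAV-GFP. Trib3 itself measured 27.9, 62.6, 67.2 and 20.2 normalised CPM (counts scaled to library size with TMM factors) in AAV-Trib3 replicates 1 to 4, against 2.68, 1.10, 2.46 and 3.36 CPM in AAV-GFP replicates 1 to 4. The groups did not overlap, and the log2 difference was 4.17 ± 0.47 (SE, n = 4 each), with an adjusted p of 0.0675 in edgeR's quasi-likelihood test. AAV-GFP replicate 2 stood apart: 32.0% of its counts were mitochondrial transcripts, against 16.3% to 18.5% in AAV-Trib3 and 14.9% to 16.8% in the other AAV-GFP libraries. The subunit genes took 0.674%, 0.762%, 0.697% and 0.709% of all counts in AAV-Trib3, and 0.742%, 0.404%, 0.722% and 0.773% in AAV-GFP. Among counts of nuclear genes alone, AAV-GFP replicate 2 was still the lowest, at 0.594%, with 0.814% to 0.935% in AAV-Trib3 and 0.865% to 0.908% in the other AAV-GFP libraries. Values without this library are given beside the complex medians, and beside single genes where they move the difference by more than 1.5 times or turn its direction. In bulk samples such as these, fewer cells of a type and less RNA per cell cannot be told apart.

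Of the 83 members, 75 passed the filter on low counts and were tested. The subunits of complex I were the lowest as a group per length of transcript. Their median was 43.4 CPM per kilobase of a principal transcript (mean of 8 libraries), against 102 in complex II, 128 in complex III, 160 in complex IV and 115 in complex V. Complex I is an assembly of many different subunits, and its tested members spanned 1.38 (Ndufb4) to 131 (Ndufb9) CPM per kilobase. In complex III the range was narrow, with 88.3 for Uqcrfs1, the Rieske iron-sulfur protein, and 325 for Uqcrq. The highest level of any member was 402 CPM per kilobase for Atp5b, the catalytic beta subunit of ATP synthase, followed by Uqcrq and then by Ndufa4 at 266. Complex II ran from 30.9 for Sdhc, a membrane anchor, to 151 for Sdha, the flavoprotein that oxidises succinate. These levels use a transcript length from the GENCODE M21 annotation, because the deposited FPKM correspond to lengths longer than the merged exons of 59 of the 80 members with an FPKM above 0.

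**Figure D1:**
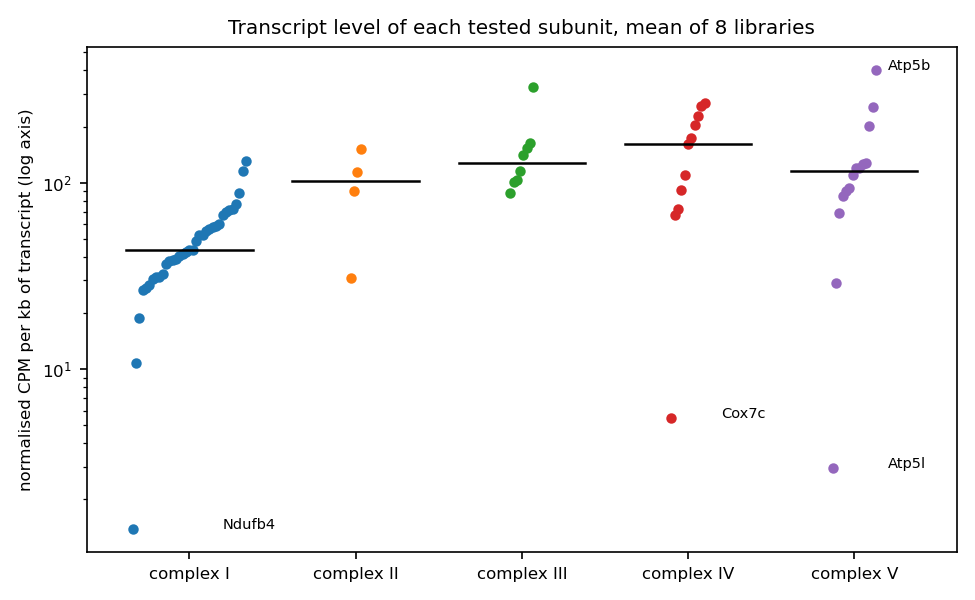
Transcript level of the 72 tested subunits of complexes I to V, as normalised CPM per kilobase of transcript on a log axis, each point being 1 gene (mean of 8 libraries) and each line the median of its complex. Complex I has the lowest median, at 43.4, and complex IV the highest, at 160; Ndufb4, Cox7c and Atp5l lie far below the other genes of their complexes.

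The 3 lowest tested subunits, which were chosen after their values were seen, were Ndufb4 (1.45 ± 0.34 CPM in AAV-Trib3 and 1.23 ± 0.43 CPM in AAV-GFP), Cox7c (2.97 ± 0.60 CPM in AAV-Trib3 and 2.97 ± 0.36 CPM in AAV-GFP) and Atp5l (1.36 ± 0.36 CPM in AAV-Trib3 and 1.86 ± 0.49 CPM in AAV-GFP; SD, n = 4 each). All encode structural subunits of their complexes. The transcripts of all of them overlap in sequence with other annotated genes: 37.0% of the 50-base words of Ndufb4 recur in 3 other genes, 53.0% of those of Cox7c in 3, and 84.9% of those of Atp5l in 14. None of the genes that share words with Ndufb4 had a row in the count table. For Cox7c, 1 of the 3 genes, Gm10012, held 227 counts over the 8 libraries, against 330 for Cox7c itself. Gm10250, which shares words with Atp5h, a subunit of the peripheral stalk, held 6779 counts, against 5912 for Atp5h. How the counting treated reads that match several genes is not given, so the levels of these members are uncertain. Shared sequence was not particular to low members. It covered 50.3% of the words of Atp5o, at 120 CPM per kilobase, and 43.4% of those of Uqcrb, at 153. The part of shared sequence in the levels was not tested.

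No member passed the test between AAV-Trib3 and AAV-GFP (0 of 75, adjusted p 0.9995 for each, edgeR's quasi-likelihood test with Benjamini-Hochberg adjustment), and none had an unadjusted p under 0.05. Over all genes, 0 of 11036 passed (0% called), while 346 had an unadjusted p under 0.05 (3.14%). DESeq2's Wald test called 17 of all genes and limma-voom 0; neither called a member, with 1 and 0 members at an unadjusted p under 0.05. The log2 differences of the members ran from -0.45 (Atp5l) to 0.43 (Ndufc1), with a median of 0.08, where all genes tested had a median of -0.01. The fitted difference was above 0 in 51 of 75 members, 68% against 47.9% of all genes. The members were measured more tightly than most genes: their median SE was 0.148 on the log2 scale, against 0.216 for all genes. They also stood at higher levels, with 71 of 75 above an average log2 CPM of 3, against 7158 of 11036 genes. Neither the SE nor the interval shares below were matched for level. For 72 of 75 members (96%) the 95% interval of the log2 difference stayed within 1 in either direction, so a doubling or halving lay outside it, against 76.9% of all genes tested. An interval within 0.5 was reached by 50 members (66.7%), against 29.8% of all genes.

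**Figure D2:**
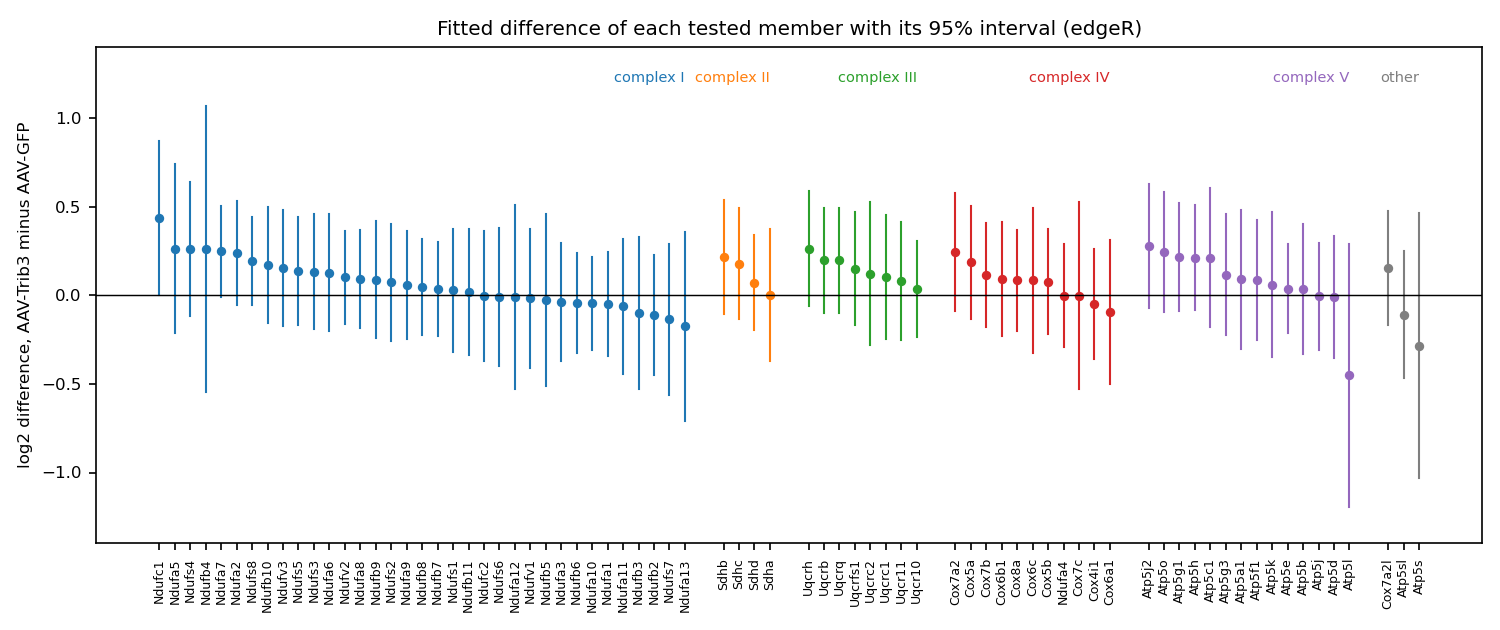
Fitted log2 difference (AAV-Trib3 minus AAV-GFP) of each of the 75 tested members, grouped by complex and ordered within it; bars are 95% intervals from edgeR with 4 libraries per group. Points lie between -0.45 (Atp5l) and 0.43 (Ndufc1), and none passed the adjusted threshold.

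By complex, the fitted difference was above 0 in 21 of 35 genes of complex I (median 0.05), 3 of 4 of complex II (0.12), 8 of 8 of complex III (0.14), 7 of 11 of complex IV (0.08) and 11 of 14 of complex V (0.09). In complex I, the 7 core subunits, those shared with the bacterial enzyme, had a median of 0.07 and the 28 accessory subunits 0.04. The medians of complexes III, IV and V leaned on AAV-GFP replicate 2: without it they were 0.05, 0.02 and 0.02, and 6 of 8 complex III genes lay above 0. Those of complexes I and II were then 0.07 and 0.10, and that of all members 0.06. Without AAV-Trib3 replicate 2 the median of complex I was -0.01 and 7 of 8 complex III genes lay above 0. As means over genes, complex III measured 6.61, 6.86, 6.80 and 6.69 log2 CPM in AAV-Trib3, and 6.65, 6.32, 6.74 and 6.66 log2 CPM in AAV-GFP. The groups overlapped, and AAV-GFP replicate 2 was the lowest of the 8 libraries. Complex I measured 5.08, 5.29, 5.23 and 5.11 log2 CPM in AAV-Trib3, and 5.19, 5.09, 5.10 and 5.05 log2 CPM in AAV-GFP, and the groups overlapped with all libraries.

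**Figure D3:**
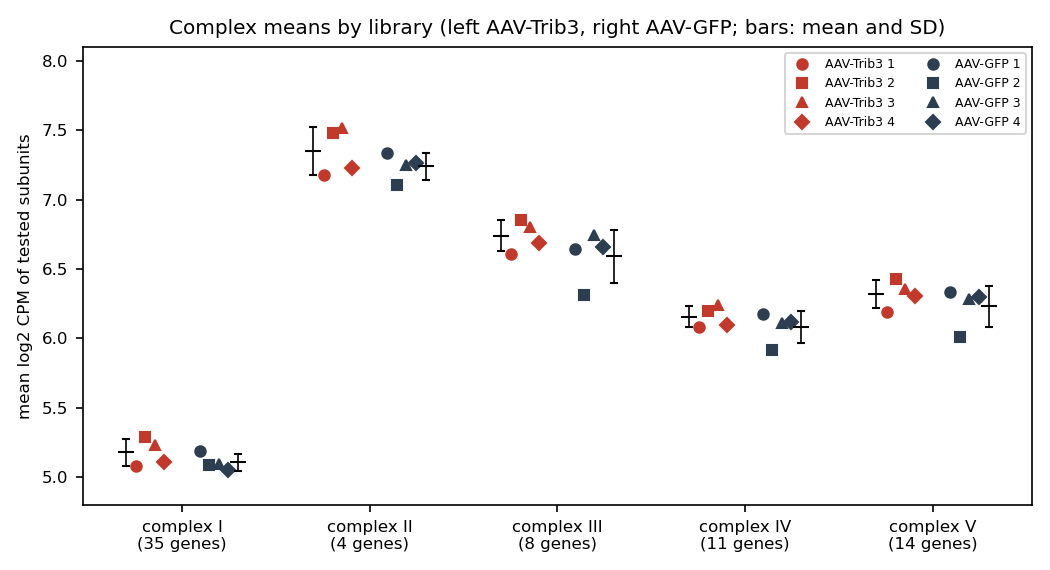
Mean log2 CPM of the tested subunits of each complex in every library, AAV-Trib3 on the left of each pair and AAV-GFP on the right; symbols give the replicate number, and bars the mean and SD of 4 libraries. AAV-GFP replicate 2 (dark square) is the lowest library in complexes II to V, at 6.32 in complex III and 6.01 in complex V.

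Among complex I members, Ndufa7, an accessory subunit (chr17:33824591-33838316 in mm10, plus strand), had groups that did not overlap. It measured 40.3, 43.8, 41.5 and 39.2 CPM in AAV-Trib3, against 38.2, 31.3, 33.7 and 35.4 CPM in AAV-GFP. The lowest AAV-Trib3 library lay just above the highest AAV-GFP library, and the log2 difference was 0.25 ± 0.11 (SE, n = 4 each; adjusted p 0.9995, edgeR). Without AAV-GFP replicate 2 it was 0.21. Only Ndufa7 and Uqcrh among the 75 tested members had groups that did not overlap (2.67%), against 2.29% of all genes; both were higher in AAV-Trib3, and non-overlap in that direction was found in 1.21% of all genes. Ndufc1, another accessory subunit, had the largest fitted difference, at 0.43 ± 0.19. It measured 7.92, 13.1, 8.23 and 11.5 CPM in AAV-Trib3, against 8.47, 7.03, 7.51 and 7.14 CPM in AAV-GFP. Replicates 2 and 4 of AAV-Trib3 were high and the other two lay among the AAV-GFP libraries, so the groups overlapped. Ndufa2, also an accessory subunit, averaged 30.3 ± 4.2 CPM in AAV-Trib3 and 25.7 ± 1.7 CPM in AAV-GFP (SD, n = 4 each). The abundant accessory subunits Ndufb9 and Ndufa6 averaged 95.2 ± 15.0 and 71.1 ± 9.4 CPM in AAV-Trib3, against 89.6 ± 9.2 and 65.1 ± 8.8 CPM in AAV-GFP. Without AAV-GFP replicate 2, the log2 difference was 0.04 for Ndufb9 rather than 0.09, and 0.07 for Ndufa6 rather than 0.13.

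In complex II, Sdha measured 384, 515, 455 and 392.3 CPM in AAV-Trib3, against 489, 355, 444 and 460 CPM in AAV-GFP. The means were 437 ± 61 CPM in AAV-Trib3 and 437 ± 58 CPM in AAV-GFP (SD, n = 4 each), with a 95% interval of the log2 difference from -0.37 to 0.37. The log2 difference was -0.083 without AAV-GFP replicate 2. Sdhb, the iron-sulfur subunit, averaged 111 ± 18 CPM in AAV-Trib3 and 95.3 ± 5.1 CPM in AAV-GFP, a log2 difference of 0.21 ± 0.14. The anchors Sdhc and Sdhd averaged 104 ± 15 and 144 ± 10 CPM in AAV-Trib3, against 92.0 ± 8.0 and 137 ± 5.8 CPM in AAV-GFP. In all 4 genes the AAV-Trib3 and AAV-GFP libraries overlapped.

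In complex III, Uqcrh (chr4:116066965-116075071 in mm10, minus strand) encodes the hinge protein at the docking site of cytochrome c. It measured 93.4, 98.2, 99.8 and 96.8 CPM in AAV-Trib3, against 83.5, 61.3, 92.4 and 86.3 CPM in AAV-GFP. The lowest AAV-Trib3 library, replicate 1, lay just above the highest AAV-GFP library, replicate 3, and the log2 difference was 0.26 ± 0.15 (SE, n = 4 each). Without AAV-GFP replicate 2 it was 0.16. Uqcrb and Uqcrq, both small accessory subunits, averaged 87.4 ± 7.0 and 140 ± 15 CPM in AAV-Trib3, against 76.2 ± 9.0 and 122 ± 9.4 CPM in AAV-GFP. Uqcrfs1 averaged 127 ± 8.4 CPM in AAV-Trib3 and 114 ± 17 CPM in AAV-GFP. Without AAV-GFP replicate 2 the log2 difference was 0.13 for Uqcrb rather than 0.20, and 0.057 for Uqcrfs1 rather than 0.15. None of these differences passed the test.

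In complex IV, Cox7a2 averaged 51.4 ± 6.4 CPM in AAV-Trib3 and 43.4 ± 6.1 CPM in AAV-GFP (log2 difference 0.24 ± 0.15), and Cox5a 75.8 ± 4.7 CPM in AAV-Trib3 and 66.6 ± 10.3 CPM in AAV-GFP (0.18 ± 0.14; SD, n = 4 each, and SE). Cox7b averaged 95.2 ± 6.7 CPM in AAV-Trib3 and 87.8 ± 10.3 CPM in AAV-GFP (0.12 ± 0.13). These log2 differences were 0.15 for Cox7a2, 0.088 for Cox5a and 0.044 for Cox7b without AAV-GFP replicate 2. Several subunits of this enzyme exist as pairs of genes with tissue-specific partners, and these hepatocytes used almost entirely the ubiquitous or liver form. Cox4i1 held 99.99% of the CPM per kilobase of its pair, and Cox4i2, the form known from lung, had 1 count in all 8 libraries. The heart and skeletal muscle forms Cox6a2 and Cox8b had 1 and 0 counts. No counts were found for Cox7b2 or Cox8c, known from testis. That allows up to 0.0296% of the counts of the Cox7b pair and 0.0240% of those of the Cox8 family, counting error only. Cox7a1, another heart and muscle form, held 15 counts in AAV-Trib3 and 8 in AAV-GFP. Its share of the pair with Cox7a2 was 0.703% by CPM per kilobase of transcript, on average over libraries. Of the 6 striated muscle markers, Ckm, Mb, Myh4, Myh7 and Tnnt3 were at 0 in every library, and the summed level of the list was 0 to 0.0675 CPM in AAV-Trib3 and 0 in AAV-GFP.

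Cox6b2 (chr7:4751792-4753094 in mm10, minus strand), the testis form of a subunit that faces the intermembrane space, was below the filter but was found on 1 side only. It held 6, 1, 9 and 11 counts in AAV-Trib3 replicates 1 to 4 and 0 counts in each AAV-GFP library. Every AAV-Trib3 library had counts and no AAV-GFP library did. Pooled over the group, the AAV-Trib3 level was 8.09 times a floor of 3 counts over the AAV-GFP group. That ratio leaves out counting error in AAV-Trib3 and the spread between libraries. AAV-Trib3 replicate 2, at 0.0733 CPM, lay close to the AAV-GFP floor of 0.0576 CPM. Cox6b1, the ubiquitous partner, averaged 110 ± 6.1 CPM in AAV-Trib3 and 104 ± 16 CPM in AAV-GFP, a log2 difference of 0.09 that became -0.0031 with AAV-GFP replicate 2 left out. Cox6b2 made up at most 0.769% of the CPM per kilobase of the pair in any library. Of the 6572 genes below the filter that had any counts, 12 (0.183%) were at 0 in all AAV-GFP libraries and present in all AAV-Trib3 libraries, and 4 showed the reverse. That share includes genes with too few counts to be present in every library of a group, so it understates how common the pattern is among genes able to show it. In a fit without the filter, Cox6b2 had an unadjusted p of 0.0022 and an adjusted p of 0.954 (edgeR's quasi-likelihood test).

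In complex V, Atp5b measured 704, 939, 736 and 739 CPM in AAV-Trib3, against 828, 655, 791 and 771 CPM in AAV-GFP. The groups overlapped, with the highest library in AAV-Trib3 and the lowest in AAV-GFP. Atp5a1, the other large subunit of the F1 head, averaged 650 ± 56 CPM in AAV-Trib3 and 611 ± 108 CPM in AAV-GFP (SD, n = 4 each). Atp5j2, a membrane subunit, averaged 94.7 ± 9.7 CPM in AAV-Trib3 and 78.0 ± 13.1 CPM in AAV-GFP (log2 difference 0.28 ± 0.16), and Atp5o, which joins the head to the peripheral stalk, 109 ± 12 CPM in AAV-Trib3 and 92.2 ± 14.6 CPM in AAV-GFP (0.24 ± 0.15). Without AAV-GFP replicate 2, the log2 difference was 0.17 for both Atp5j2 and Atp5o, -0.024 for Atp5a1 rather than 0.09, and -0.026 for Atp5b rather than 0.03. The proton-carrying c-ring is made from 3 genes that encode the same mature protein. Of their summed CPM per kilobase of transcript, Atp5g3 held 86.9% on average over libraries, Atp5g1 12.7% and Atp5g2 0.434%. For Atp5g1 the mean was 21.6 ± 2.0 CPM in AAV-Trib3 and 18.6 ± 2.4 CPM in AAV-GFP, and for Atp5g3 149 ± 17 CPM in AAV-Trib3 and 137 ± 20 CPM in AAV-GFP. The log2 difference of Atp5g3 was 0.12, and 0.026 without AAV-GFP replicate 2. All 50-base words of the Atp5g2 transcript recur in other annotated genes, as do 56.2% of those of Atp5g1, so both shares are uncertain.

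Single libraries stood out over many members at once. AAV-GFP replicate 2 was the lowest library for 45 of 75 members (60%), against 23.6% of all genes tested. It was the lowest for 8 of 8 genes of complex III and 11 of 14 of complex V, but for 15 of 35 of complex I. AAV-Trib3 replicates 2 and 3 were the highest libraries for 31 and 19 members (41.3% and 25.3%), against 13.8% and 9.98% of all genes. Relative to the mean of the other AAV-GFP libraries, AAV-GFP replicate 2 had a median of 0.863 over the members and 0.962 over all genes. Uqcrc2, a core protein of complex III, shows the common pattern, with 176, 218, 231 and 196 CPM in AAV-Trib3, against 206, 133, 219 and 197 CPM in AAV-GFP. With AAV-GFP replicate 2 left out, its log2 difference of 0.12 became -0.0071. The summed level of the 13 mitochondrially encoded subunits stood at 23.3 to 26.0 times the nuclear members' summed CPM in AAV-Trib3, and at 22.9, 80.2, 23.2 and 19.5 times in AAV-GFP replicates 1 to 4. The hepatocyte markers, 6 genes, summed to 72333, 98879, 116242 and 73834 CPM in AAV-Trib3, and to 78211, 145676, 86481 and 77655 CPM in AAV-GFP. The 9 Kupffer cell markers summed to 94.2, 10.04, 21.2 and 59.2 CPM in AAV-Trib3, and to 10.1, 73.2, 7.73 and 67.8 CPM in AAV-GFP. Among the AAV-Trib3 libraries, replicates 2 and 3 thus had the highest hepatocyte marker sum, the least Kupffer cell signal and, as given above, the most Trib3. Most of the hepatocyte sum was Alb. Cyp2e1, of the same list, was lowest in replicate 3, at 5975 CPM, while its other markers were highest in replicates 2 and 3. In AAV-GFP, replicate 2 had the highest hepatocyte sum but was the lowest library for most members. The part of any of these in the members' levels was not tested.

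**Figure D4:**
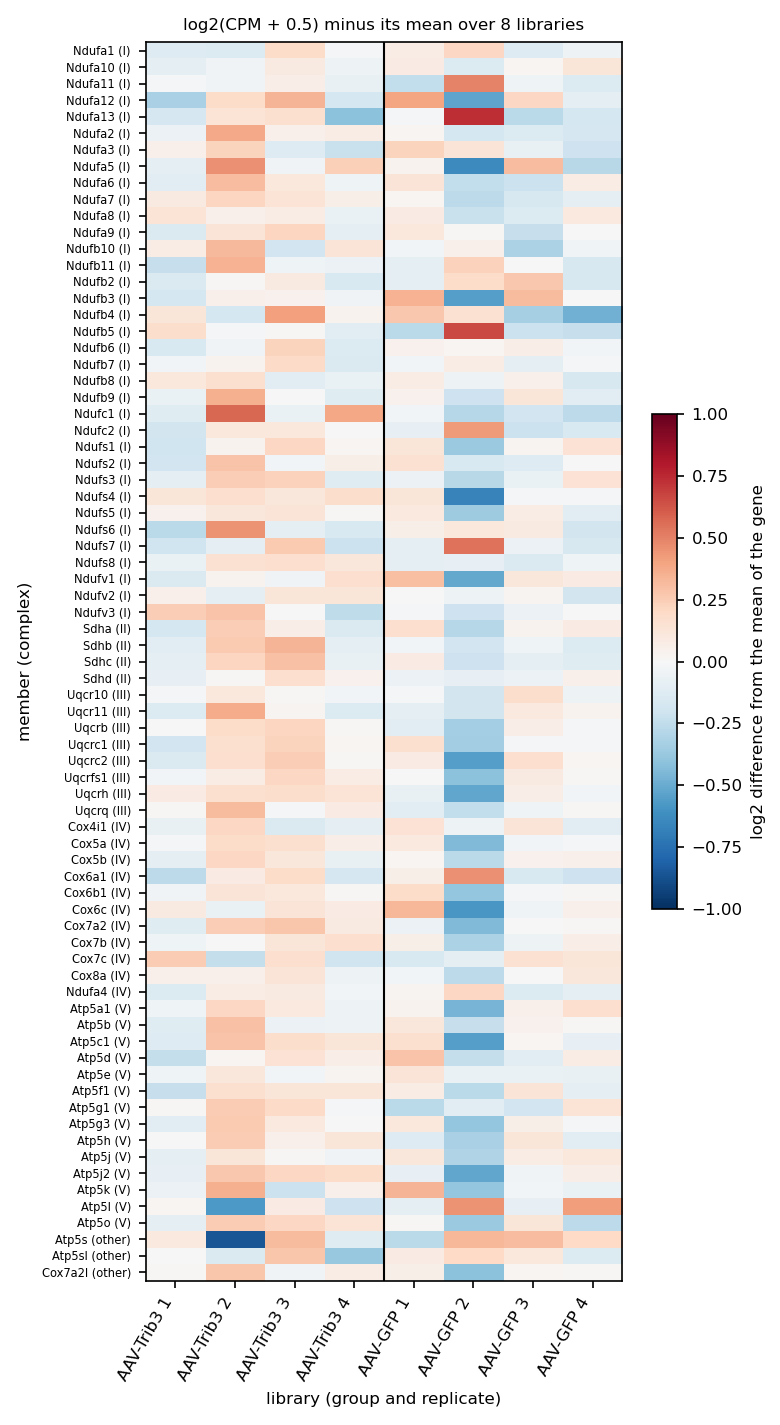
log2(CPM + 0.5) of each tested member in each library minus the mean of that gene over the 8 libraries, with red above and blue below the mean; AAV-Trib3 libraries are on the left and AAV-GFP libraries on the right. AAV-GFP replicate 2 is blue for most members, with red exceptions such as Ndufa13 and Ndufb5, and AAV-Trib3 replicate 2 is red for most.

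Several complex I members went the other way in AAV-GFP replicate 2, and those given here were named after their values were seen. Ndufa13, an accessory subunit also known as GRIM-19, measured 46.2, 57.2, 58.1 and 39.0 CPM in AAV-Trib3, against 51.0, 86.9, 43.0 and 45.9 CPM in AAV-GFP. Ndufb5 measured 45.5, 39.7, 40.5 and 37.2 CPM in AAV-Trib3, against 33.2, 64.0, 34.5 and 34.3 CPM in AAV-GFP. In both genes AAV-GFP replicate 2 was the highest of the 8 libraries. Without it, the log2 difference of Ndufa13 was 0.11 rather than -0.18, and that of Ndufb5 0.27 rather than -0.03; neither passed the test. Ndufs4, whose loss impairs complex I assembly, was low in the same library instead: it measured 49.7, 51.3, 49.5 and 51.8 CPM in AAV-Trib3, against 49.7, 28.6, 45.4 and 45.0 CPM in AAV-GFP. Its log2 difference was 0.26, and 0.12 without that library. In all, 55 of 75 members lay below the other AAV-GFP libraries' mean in AAV-GFP replicate 2, with a range over the members from 0.579 to 1.88 times that mean.

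Many of the genes share their start region with a neighbour. Of the 75 tested members, 31 (41.3%) had a protein-coding gene on the opposite strand whose start lay within 1000 bases, against 17.5% of the 10518 protein-coding genes tested. Ndufa7 and Rps28, a ribosomal protein gene, started 10 bases apart, Ndufs1 and Eef1b2 8 bases apart, and Sdha and Ccdc127 29 bases apart. Atp5j started 700 bases from Gabpa, which encodes a transcription factor of respiratory genes. By complex, the count was 16 of 35 in complex I, 3 of 4 in complex II, 4 of 8 in complex III, 2 of 11 in complex IV and 5 of 14 in complex V. The library protocol names no step that keeps strand, and how strand was treated in counting is not given. Where such genes overlap, their reads may therefore not have been told apart.

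RefSeq promoter windows (GRCm38.p6, from 250 bases before to 50 after the start) were available for 66 members, 61 of them tested. They were searched on both strands for the letters of factors known to act on respiratory genes and for 3 other motifs, of SP1, the TATA box and ATF4 with C/EBP. The NRF1 motif, GCGCA followed directly by its reverse complement, was found in 4 of 61 tested members (6.56%), against 2.51% of 8319 tested genes with a window and 1.07% of all 27025 genes with one. For AAGATGGCG, the letters of YY1, the shares were 11.5%, 4.03% and 1.64%. It was held by 5 of 31 tested genes with a window in complex I (16.1%) and 2 of 12 in complex V (16.7%). CCGGAAG, the core bound by GABPA and other ETS factors, was found in 26.2% of tested members, against 21.3% of tested genes and 9.93% of all genes. TCAAGGTCA, the ERRA motif, was found in only 2 of 61 tested members (3.28%), against 0.337% of tested genes and 0.466% of all genes. The shares went the other way for GGGCGGG, the core of the SP1 motif, with 31.15%, 52.1% and 27.9%: it was rarer among tested members than among tested genes. TGCGCA, a shorter sequence that the NRF1 letters above do not contain, was found in 26.2%, 16.4% and 8.79%. For TATAAA, the TATA box, the shares were 8.20%, 9.05% and 15.7%. No member held TGATGCAA, a composite ATF4 and C/EBP site, found in 0.721% of tested genes. The windows below are those of Ndufa7 (chr17:33824322-33824621, plus strand) and Uqcrh (chr4:116075021-116075320, minus strand), whose groups did not overlap, of Cox6b2 (chr7:4753045-4753344, minus strand), found in AAV-Trib3 only, and of the 4 tested members that hold the NRF1 letters. Those are Atp5k (chr5:108434350-108434649, minus strand), Cox6a1 (chr5:115348909-115349208, minus strand), Ndufa11 (chr17:56717512-56717811, plus strand) and Uqcrc1 (chr9:108936398-108936697, plus strand). Capitals mark the NRF1 letters and CCGGAAG or its reverse complement; the windows of Ndufa7 and Cox6b2 hold none of the letters searched for NRF1, GABPA, YY1 or ERRA.
Ndufa7: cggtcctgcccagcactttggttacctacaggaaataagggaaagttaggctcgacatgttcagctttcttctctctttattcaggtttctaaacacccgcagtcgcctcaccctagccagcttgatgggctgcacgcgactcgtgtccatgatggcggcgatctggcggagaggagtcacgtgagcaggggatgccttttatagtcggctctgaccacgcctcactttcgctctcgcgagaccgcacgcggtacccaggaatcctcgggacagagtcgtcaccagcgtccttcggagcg
Uqcrh: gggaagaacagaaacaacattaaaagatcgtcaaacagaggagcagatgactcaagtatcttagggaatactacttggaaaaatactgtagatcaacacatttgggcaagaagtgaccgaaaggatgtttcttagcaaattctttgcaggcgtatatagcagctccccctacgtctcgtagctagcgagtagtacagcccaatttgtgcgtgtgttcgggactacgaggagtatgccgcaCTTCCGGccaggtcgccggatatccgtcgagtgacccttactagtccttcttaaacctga
Cox6b2: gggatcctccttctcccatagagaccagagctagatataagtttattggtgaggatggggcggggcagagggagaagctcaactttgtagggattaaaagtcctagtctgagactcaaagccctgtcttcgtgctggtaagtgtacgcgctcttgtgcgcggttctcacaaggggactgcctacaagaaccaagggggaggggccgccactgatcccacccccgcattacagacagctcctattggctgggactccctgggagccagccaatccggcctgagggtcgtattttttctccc
Atp5k: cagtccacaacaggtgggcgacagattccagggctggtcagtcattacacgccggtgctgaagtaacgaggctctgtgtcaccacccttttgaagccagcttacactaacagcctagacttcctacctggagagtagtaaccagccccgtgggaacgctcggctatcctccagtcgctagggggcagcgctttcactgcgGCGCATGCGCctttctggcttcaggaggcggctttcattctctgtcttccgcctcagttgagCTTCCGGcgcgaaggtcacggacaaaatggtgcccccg
Cox6a1: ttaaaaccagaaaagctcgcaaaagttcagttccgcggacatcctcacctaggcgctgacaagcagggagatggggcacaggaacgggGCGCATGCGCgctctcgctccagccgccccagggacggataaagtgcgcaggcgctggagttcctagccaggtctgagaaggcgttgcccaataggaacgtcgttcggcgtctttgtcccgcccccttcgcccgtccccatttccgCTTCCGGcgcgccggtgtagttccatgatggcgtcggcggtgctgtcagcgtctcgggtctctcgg
Ndufa11: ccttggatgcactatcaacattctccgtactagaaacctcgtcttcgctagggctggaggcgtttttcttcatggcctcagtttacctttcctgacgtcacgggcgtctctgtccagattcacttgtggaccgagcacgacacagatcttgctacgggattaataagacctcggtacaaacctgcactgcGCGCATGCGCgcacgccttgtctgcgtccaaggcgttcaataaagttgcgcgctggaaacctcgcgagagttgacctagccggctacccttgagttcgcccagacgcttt
Uqcrc1: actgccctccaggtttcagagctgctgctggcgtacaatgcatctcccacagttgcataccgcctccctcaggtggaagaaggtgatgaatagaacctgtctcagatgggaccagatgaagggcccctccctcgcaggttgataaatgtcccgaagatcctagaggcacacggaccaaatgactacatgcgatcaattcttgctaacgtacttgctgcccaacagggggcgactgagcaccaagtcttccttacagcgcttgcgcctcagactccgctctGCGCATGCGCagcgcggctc

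These matches describe the letters in the windows and not binding. The 4 genes with the NRF1 letters did not share a direction: the log2 difference was 0.06 ± 0.18 for Atp5k, -0.09 ± 0.18 for Cox6a1, -0.06 ± 0.17 for Ndufa11 and 0.10 ± 0.16 for Uqcrc1 (SE, n = 4 each), and none passed the test. With AAV-GFP replicate 2 left out, the log2 difference was -0.042 for Atp5k, 0.073 for Cox6a1, 0.13 for Ndufa11 and 0.018 for Uqcrc1. Cox6a1 and Ndufa11 were among the members that were high in AAV-GFP replicate 2, at 199 and 51.3 CPM, where Atp5k and Uqcrc1 were low, at 19.1 and 130 CPM. The 12 regulators listed for these genes had 6 members above 0 and 6 below, with a median log2 difference of 0.00, and none passed the test; without AAV-GFP replicate 2, 3 lay above 0 and 9 below, with a median of -0.07. Esrra, which encodes ERRA, averaged 22.9 ± 1.6 CPM in AAV-Trib3 and 18.6 ± 3.1 CPM in AAV-GFP, and Ppargc1a, the coactivator of mitochondrial biogenesis, 11.2 ± 9.8 CPM in AAV-Trib3 and 8.91 ± 5.01 CPM in AAV-GFP (SD, n = 4 each). The log2 difference of Ppargc1a was 0.31, and 0.11 without AAV-GFP replicate 2. Pprc1, a coactivator related to Ppargc1a, averaged 9.25 ± 3.09 CPM in AAV-Trib3 and 14.4 ± 3.8 CPM in AAV-GFP, a log2 difference of -0.64 ± 0.26 with an adjusted p of 0.9995 (edgeR).

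The assembly factors, which are needed to build the complexes but leave them, also gave no call. Of the 14 tested factors of complex I, 6 lay above 0 and 8 below (median -0.04); of complex II, 4 and 0 (0.15); of complex III, 1 and 5 (-0.17); of complex IV, 8 and 12 (-0.02); and of complex V, 2 and 1 (0.05). Without AAV-GFP replicate 2, the split was 7 and 7 for complex I (0.02), 2 and 2 for complex II (0.13), 1 and 5 for complex III (-0.17), 9 and 11 for complex IV (0.00) and 2 and 1 for complex V (0.04). The complex III factors thus had a negative median where the median of the complex III subunits was positive. These medians were not compared by a test. Bcs1l, which inserts the Rieske protein Uqcrfs1, averaged 7.80 ± 1.08 CPM in AAV-Trib3 and 9.37 ± 1.43 CPM in AAV-GFP, and Ttc19 12.7 ± 1.7 CPM in AAV-Trib3 and 14.8 ± 1.9 CPM in AAV-GFP (SD, n = 4 each). Uqcc2, the 1 factor above 0, averaged 8.95 ± 1.74 CPM in AAV-Trib3 and 7.25 ± 0.59 CPM in AAV-GFP. Its log2 difference, 0.30 ± 0.18 (SE), was the largest in size of the complex III factors. The direction of the 13 mitochondrially encoded partners turned on AAV-GFP replicate 2: all lay below 0 with it, with a median of -0.44, and 12 of 13 lay above 0 without it, with a median of 0.19. No gene among them passed the test either way. Cyc1, the cytochrome c1 subunit of complex III that falls outside the name rule, averaged 126 ± 13 CPM in AAV-Trib3 and 132 ± 19 CPM in AAV-GFP, a log2 difference of -0.07, and 0.042 without AAV-GFP replicate 2.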

How the data were processed

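Poly(A)-selected RNA of 8 hepatocyte libraries was analysed. The deposited counts, per the file headers, are whole numbers per gene. The deposited FPKM, per the file headers, are length-scaled counts per library total; they served only to rank members and to derive the length they imply. The submitters' processing notes name Trimmomatic and mm10; for the aligner, counter and annotation, nothing is given in the sources used here. Members and lists were chosen with earlier results of these data known.

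Genes were kept by edgeR's filterByExpr (11036 genes) and scaled by TMM. AAV-Trib3 was set against AAV-GFP by the quasi-likelihood F test of edgeR (robust fit, Benjamini-Hochberg threshold 0.05), fitted on the whole table and tested on simulated data first. Standard errors derive from the fold change and F statistic. Levels between genes use CPM per kilobase of the median-length GENCODE M21 principal transcript. Shared sequence was counted in 50-base words. Named members were Trib3, the 3 with the smallest p and the 2 with the highest FPKM in each complex, members whose groups did not overlap, the isoform families and Sdha to Sdhd; other members are named as examples, and were picked with values in view. Other settings tried were DESeq2 size factors, library size alone, mitochondrial genes removed first, DESeq2's Wald test, limma-voom, no filter, a stricter filter, robust estimation off, a replicate block and each library left out. Libraries of a group differed far beyond sampling noise (chi-square per degree of freedom 16.8 to 204), so all 8 were kept as separate. Software was R 4.3.3, edgeR 4.0.16, limma 3.58.1, DESeq2 1.42.0, Python 3.11.15 and matplotlib 3.10.9. The limits that a count of 0 allows cover counting error only; the 95% intervals of log2 differences come from the edgeR fit and include the spread between libraries. For the lists, leaving out each library was added after the values had been seen.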

Additional observations from a re-analysis of the deposited data

Results flagged for a closer look

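Of 82 groups of 4 libraries examined, 7 had 1 library whose gap to the nearest of the others was unusually wide for the group's range. For independent groups chosen without their values in view, chance gives this in about 1 of 20. The 7 cannot be set against that share, because the groups share libraries and Ndufb5 was named after its values were seen. Members that were not named were not examined. Among them, Ndufs7 measured 45.5 CPM in AAV-GFP replicate 2 and 27.7 to 29.7 CPM in the other AAV-GFP libraries. In AAV-GFP replicate 2, Cox7a2 was low at 34.3 CPM, Cox7a2l was low at 37.5 CPM and Ndufb5 was high at 64.0 CPM. The mean of the complex V subunits was low in the same library, at 6.01 log2 CPM. That library also had the high mitochondrial share of 32.0% of its counts and the low member share of 0.404%. In AAV-Trib3 replicate 2, Atp5b was high at 939 CPM. Cox6b2, which was too low to be tested, had 27 counts over the AAV-Trib3 libraries and none in AAV-GFP.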

How the results depend on the processing

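No member was called under any of the alternatives run. Over all genes, DESeq2's Wald test called 17 and leaving out 1 library in turn called 0 to 3. Members below 0 numbered 24; with library size alone 13 lay below 0 and 62 above, while the share of all genes above 0 was 57.8% against 47.9%, and with 1 library left out 15 to 30 lay below and 45 to 60 above. The median log2 difference of all members stayed above 0 throughout, from 0.04 to 0.12 with 1 library left out. Of 559 values of 33 named members under alternatives, 533 kept their sign and 26, from 9 genes, did not. Of those 9 genes, Ndufa13 had the largest difference, at -0.18. The 33 members were chosen in part by their values in the main fit, so this tally does not describe the members as a whole. Sdha was 0.015 with library size alone, 0.0057 with limma-voom and 0.0015 without a filter, Cox7c 0.035 and 0.0012 with library size alone and without a filter, and Ndufb5 0.10, 0.0296 and 0.0302 with library size alone, limma-voom and the replicate block. With 1 library left out, the ranges were -0.093 to 0.057 for Sdha, -0.11 to 0.079 for Cox7c, -0.12 to 0.27 for Ndufb5, -0.024 to 0.16 for Atp5a1, -0.071 to 0.080 for Atp5b, -0.18 to 0.073 for Cox6a1, -0.0031 to 0.17 for Cox6b1, -0.033 to 0.14 for Ndufb9 and -0.29 to 0.11 for Ndufa13. Beyond which library was left out, the cause was not tested. Trib3 passed the threshold with DESeq2 (adjusted p 1.32e-17) and without AAV-Trib3 replicate 4 (edgeR, adjusted p 0.0206). Same-numbered libraries of the 2 groups did not deviate together (correlations -0.27, -0.13, -0.15 and -0.03; 0 correlated best with its own number), and with the replicate block 56 members lay above 0, 19 below and 0 were called. Genes of few counts, such as Ndufb4 with 145 in all, have wide intervals, and changes smaller than such an interval were not detectable at this depth and replication.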

Other observations

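Among the genes of the wider chain outside the name rule, Etfb, Cox19, Timmdc1 and mt-Nd6 had groups that did not overlap, and they are named here after their values were seen. Etfb, the beta subunit of the flavoprotein that brings electrons from fatty acid oxidation to the quinone pool, averaged 153 ± 12 CPM in AAV-Trib3 and 130 ± 3.7 CPM in AAV-GFP (SD, n = 4 each), a log2 difference of 0.24 ± 0.12. In its list of electron carriers and donors to the quinone pool, 3 of 7 tested genes lay above 0 and 4 below, with Etfdh at -0.22 ± 0.18. Cox19, a copper-handling assembly factor of complex IV, averaged 14.0 ± 1.0 CPM in AAV-Trib3 and 16.9 ± 1.0 CPM in AAV-GFP (-0.27 ± 0.12). Timmdc1, an assembly factor of complex I, averaged 19.1 ± 0.7 CPM in AAV-Trib3 and 24.1 ± 7.0 CPM in AAV-GFP (-0.33 ± 0.19); AAV-GFP replicate 2 measured 34.5 CPM and the other AAV-GFP libraries 20.1 to 21.5 CPM, and without it the difference was -0.10 ± 0.10. For mt-Nd6, the complex I subunit encoded on the opposite strand of the mitochondrial genome from the others, the averages were 49.5 ± 15.7 CPM in AAV-Trib3 and 164 ± 120 CPM in AAV-GFP (-1.72 ± 0.44). In AAV-GFP replicate 2, the library with 32.0% mitochondrial counts, mt-Nd6 measured 339 CPM, and without it the difference was -1.08 ± 0.27, with an adjusted p of 0.759 (edgeR). None of these genes passed the threshold (edgeR, adjusted p 0.9995 for each). Each gene without overlap was the only such gene of its list. That made 1 of 7 electron carriers and donors, 1 of 20 complex IV factors, 1 of 14 complex I factors and 1 of 13 mitochondrially encoded subunits. Groups that did not overlap were found in 2.29% of all genes. Coenzyme Q synthesis had 4 of 11 tested genes above 0 and 7 below (median -0.01).

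The members spread less between libraries of a group than other genes: the median within-group SD was 0.188 on the log2 scale over 75 members and 0.305 over all genes tested. Among genes of average log2 CPM above 3, it was 0.185 over 71 members and 0.254 over 7158 genes.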
